A study of Homo sapiens with 18 samples.

Results

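The aldo-keto reductases AKR1A1, AKR1B1, AKR1B10, AKR1B15, AKR1C1, AKR1C2, AKR1C3, AKR1C4, AKR7A2 and AKR7A3 were followed through the response of A549 cells to sodium propionate (SP). They were taken by symbol, as the rows whose Ensembl identifier carries one of these names in the GRCh38 annotation, which found 10 genes of the 61541 listed in each count table. A549 is an established human lung adenocarcinoma line, wild type by its labels, and SP is the salt of propionate, a short-chain fatty acid made by gut bacteria. SP was given at 5 mM. It lasted 3 or 24 h in the early groups and 3 or 12 days in the late ones, and other cells were left untreated as controls at 24 h and 3 days. RNA was sequenced in 18 libraries, 3 per group, and counted per gene. The control of 24 h, SP 3 h and SP 24 h stand in one table, and the control of 3 days, SP 3 days and SP 12 days in the other. SP 3 h and SP 24 h were compared with the control of 24 h, and SP 3 days and SP 12 days with the control of 3 days. No untreated library of 3 h or 12 days was analysed, so hours or days in culture and SP cannot be told apart in those comparisons.

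Aldo-keto reductases are NADPH-dependent enzymes that reduce aldehydes and ketones to alcohols. AKR1B1, aldose reductase, turns glucose into sorbitol in the polyol pathway, and AKR1B10 reduces retinal and reactive lipid aldehydes. AKR1C1, AKR1C2 and AKR1C3 act on steroids: AKR1C1 inactivates progesterone, AKR1C2 inactivates dihydrotestosterone, and AKR1C3 makes testosterone and also prostaglandin F. AKR1B10 and the AKR1C genes are known targets of NRF2, the transcription factor of the oxidative stress response that KEAP1 holds down, and A549 carries a KEAP1 mutation and is known for a high level of these enzymes.

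The reads of the family are partly shared, because the genes arose by duplication. AKR1C1 (chr10:4963253-4983283, + strand), AKR1C2 (chr10:4987775-5018031, - strand), AKR1C3 (chr10:5035354-5107686, + strand) and AKR1C4 (chr10:5195462-5218949, + strand; all GRCh38) lie side by side. Their coding sequences have 972 bases each in the GENCODE canonical transcripts, and AKR1C1 matched AKR1C2 at 98.0% of these bases, AKR1C3 at 91.5% and AKR1C4 at 88.5%. The longest coding exon, the second, has 168 bases in all 4 genes and shows where a read can and cannot tell them apart. It is printed 5′ to 3′ on the coding strand, with capitals for bases that differ from AKR1C1.
AKR1C1, chr10:4965914-4966081: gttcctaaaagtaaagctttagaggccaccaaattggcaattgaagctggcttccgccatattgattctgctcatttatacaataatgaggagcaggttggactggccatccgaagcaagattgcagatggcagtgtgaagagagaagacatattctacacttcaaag
AKR1C2, chr10:5001514-5001681: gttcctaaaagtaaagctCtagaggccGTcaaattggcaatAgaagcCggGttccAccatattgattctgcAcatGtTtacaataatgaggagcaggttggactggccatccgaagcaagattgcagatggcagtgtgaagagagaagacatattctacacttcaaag
AKR1C3, chr10:5096410-5096577: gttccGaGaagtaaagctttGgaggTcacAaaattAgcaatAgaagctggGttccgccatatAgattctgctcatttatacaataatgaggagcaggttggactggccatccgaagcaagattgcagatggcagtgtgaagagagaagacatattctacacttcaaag
AKR1C4, chr10:5200181-5200348: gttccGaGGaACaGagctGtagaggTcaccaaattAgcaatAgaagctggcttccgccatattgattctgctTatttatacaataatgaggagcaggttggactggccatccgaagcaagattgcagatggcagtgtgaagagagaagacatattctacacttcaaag
The differences, 10 in AKR1C2, 9 in AKR1C3 and 11 in AKR1C4, all lie in the first part of the exon, and its second part is the same in the 4 genes. Over whole canonical transcripts, a window of 100 bases taken from AKR1C2 also occurred in another gene's transcript in 27.8% of positions, against 12.6% for AKR1C1, 7.8% for AKR1C3 and 0.5% for AKR1C4. The read length is not given in the sources used here, and the share depends on it. With windows of 50 bases it was 47.3% for AKR1C2, 22.7% for AKR1C1, 18.6% for AKR1C3 and 17.3% for AKR1C4. With 150 it was 17.2%, 7.9%, 2.1% and 0.0% in the same order. How reads that match several genes were counted is not stated in the sources used here. The split of reads between these genes is therefore uncertain, and AKR1C1 and AKR1C2 share the most.

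The AKR1B genes lie together on chromosome 7. AKR1B1 (chr7:134442356-134459284, - strand) stands apart in sequence, and AKR1B10 (chr7:134527567-134541412, + strand) and AKR1B15 (chr7:134549110-134579875, + strand) are close copies. AKR1B10 matched AKR1B15 at 95.0% of the 885 coding bases that could be lined up, and AKR1B1 at 75.3% of 951. Their second coding exon, again 168 bases, is shown with capitals for bases that differ from AKR1B10.
AKR1B10, chr7:134530643-134530810: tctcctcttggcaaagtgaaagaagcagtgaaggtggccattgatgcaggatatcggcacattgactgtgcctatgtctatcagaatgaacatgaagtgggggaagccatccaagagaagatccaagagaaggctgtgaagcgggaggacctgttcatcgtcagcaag
AKR1B15, chr7:134568158-134568325: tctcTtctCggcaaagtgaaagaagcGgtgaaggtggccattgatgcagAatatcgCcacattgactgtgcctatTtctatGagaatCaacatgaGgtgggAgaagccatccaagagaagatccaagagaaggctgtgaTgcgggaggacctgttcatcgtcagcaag
AKR1B1, chr7:134451586-134451753: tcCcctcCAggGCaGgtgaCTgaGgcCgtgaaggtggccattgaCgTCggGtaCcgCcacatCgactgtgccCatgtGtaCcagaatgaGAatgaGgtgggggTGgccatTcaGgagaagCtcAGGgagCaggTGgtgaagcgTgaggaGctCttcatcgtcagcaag
AKR1B15 differed from AKR1B10 at 11 of these bases and AKR1B1 at 37. No window of 100 bases of AKR1B1 occurred in another gene, and 5.0% of those of 50 bases did, whereas 2.0% of the AKR1B10 and 1.1% of the AKR1B15 windows of 100 bases were shared. The other members, AKR1A1 (chr1:45550543-45570049, + strand), AKR7A2 (chr1:19303965-19312144, - strand) and AKR7A3 (chr1:19282573-19288770, - strand), lie on chromosome 1, and AKR7A3 shared 15.1% of its windows, with AKR7L. No exon of a member overlapped that of another gene, except 83 bases of AKR1C4.

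In these cells the family was dominated by AKR1B10, AKR1B1, AKR1C2 and AKR1C3. Levels are given as CPM, the reads of a gene scaled to a fixed library total and between libraries by TMM factors, and as mean ± SD of 3 libraries. In the control of 3 days AKR1B10 stood at 2801 ± 190 CPM, AKR1C2 at 2315 ± 65.3, AKR1B1 at 1410 ± 128, AKR1C3 at 1101 ± 60.5 and AKR1C1 at 434 ± 14.5. By CPM, AKR1B10 ranked 18 and AKR1C2 ranked 24 among the 17775 genes tested there. Per kilobase of all annotated exons the order in that control was AKR1B10 at 1580 CPM per kb, AKR1B1 at 386, AKR1C2 at 380, AKR1C3 at 282, AKR1C1 at 49.5, AKR1A1 at 26.5, AKR7A2 at 24.4, AKR1B15 at 7.10, AKR1C4 at 0.826 and AKR7A3 at 0.334. AKR1B1 and AKR1C2 overlapped between libraries in this order, as did AKR1A1 and AKR7A2, and the other neighbours did not. AKR1C3 passed AKR1C2, at 928 against 720 CPM per kb, where the canonical transcript was used as the length, so the order of these 2 genes depends on the length taken. After 12 days of SP, AKR1B10 led AKR1B1 at 758 against 537 CPM per kb of all exons, and AKR1B1 led at 1443 against 830 by the canonical transcript. AKR7A3 had between 12 and 30 reads in a whole group and was left out of the tests, which covered 9 of the 10 genes. AKR1C4, an enzyme of the liver, had between 46 and 127 reads in a group.

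The libraries held between 14187401 and 43765330 reads in genes. Epithelial markers were present throughout, with all 7 of KRT7, KRT8, KRT18, KRT19, EPCAM, CDH1 and MUC1 counted in every library and a summed level between 7654 and 18078 CPM. Of the markers of other cell types, CD3E had no read in any library and PTPRC none at 3 h, 24 h or the control of 24 h, and the endothelial list summed to at most 3.07 CPM. The fibroblast list stood higher after SP, going from between 18.7 and 20.04 CPM in the control of 3 days to between 90.7 and 107 at SP 3 days, mostly through COL1A1 and THY1, while COL1A2 had no read in those groups and DCN reached a mean of 0.181 CPM. The leukocyte list went from between 17.4 and 18.8 CPM to between 34.8 and 38.1 in the same groups, almost all of it CD14. The part of these genes in the results below was not tested. Replicate 3 of the control of 24 h stood apart from the other 2, with a chi-square per gene of 104 and 58.8 against them, compared with 22.9 between replicates 1 and 2. It also had more reads, 28773051 against 19759554 and 18568469. Replicate 3 stood apart in 2 other groups as well. At SP 3 h it had 30.4 and 68.1, compared with 9.82 between the other 2, and at SP 12 days 19.3 and 31.2, compared with 3.01. Results that change without replicate 3 of the control of 24 h are given below. The labels do not say whether replicates came from separate cultures, so the p-values measure the spread between these libraries, which may be technical. In bulk RNA, fewer cells that express a gene and less of its RNA per cell cannot be told apart.

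Most of the family fell under SP and AKR1B1 rose. A gene is said to rise or fall here where its adjusted p, from edgeR's quasi-likelihood test with Benjamini-Hochberg adjustment over all genes tested, was under 0.05. After 3 days of SP, 6 of the 9 tested members fell, where 23.3% of all tested genes did, and 1 rose, where 25.2% did. The same numbers were found after 12 days, 6 lower against 23.4% of all genes and 1 higher against 26.4%. After 24 h, 4 members fell and 1 rose, where 12.0% and 16.8% of all genes did. After 3 h none passed, where 4.11% of all genes fell and 7.39% rose. At the thresholds of the paper, an adjusted p under 0.0001 and a change of at least 2-fold, 4 members were called at 3 days, where 8.44% of all genes were, and 4 at 12 days, where 9.11% were. None was called at 24 h or 3 h, where 0.685% and 0.00% of all genes were. These thresholds were applied here to edgeR's test, whereas the paper used them with DESeq2. With DESeq2, AKR1B10 was called at 24 h (log2 fold change -1.01, adjusted p = 1.48e-08), as were 1192 of all 17377 genes. At 3 h DESeq2 called no member and 415 of all genes. The median log2 fold change of the 9 members was -0.30 at 3 h, -0.35 at 24 h, -0.96 at 3 days and -0.96 at 12 days, beside medians of all tested genes between -0.02 and 0.00. The members share libraries and some share reads, so they are not independent of each other.

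**Figure D1:**
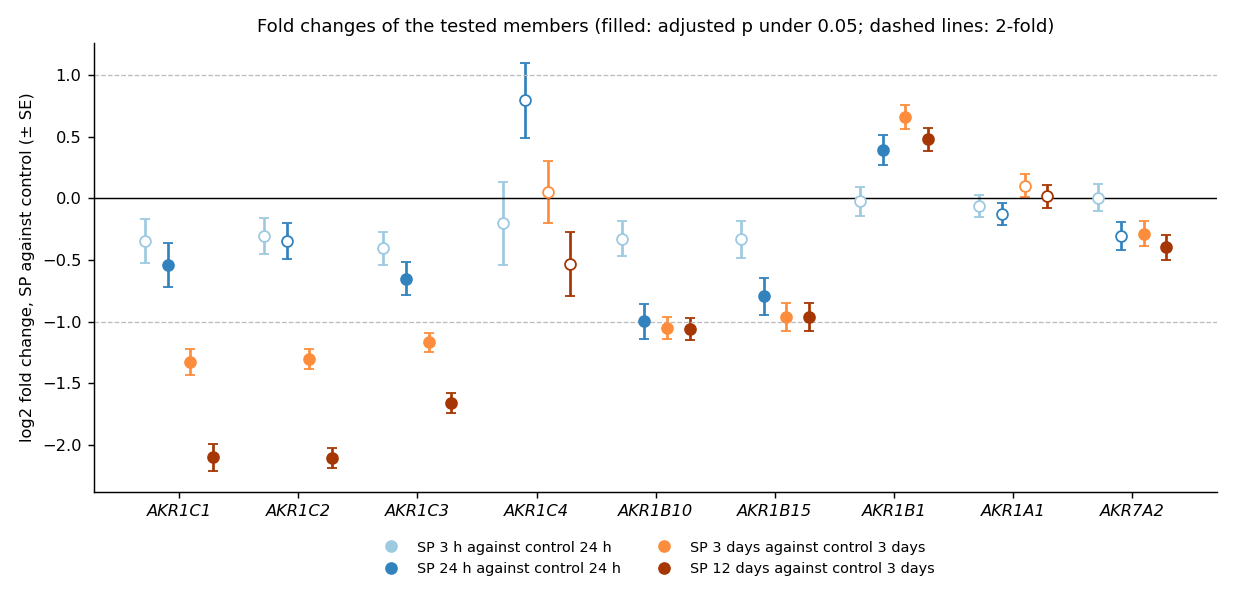
Log2 fold change (± SE, y axis) of the 9 tested members (x axis) in the 4 comparisons with the controls, 3 libraries per group, with filled points where the adjusted p was under 0.05 and dashed lines at 2-fold. AKR1C1, AKR1C2 and AKR1C3 lie lowest at 12 days, at -2.10, -2.10 and -1.66, AKR1B10 lies between -1.06 and -0.997 from 24 h on, and AKR1B1 alone has filled points above 0.

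The steroid-reducing AKR1C genes fell furthest, and fell further from 3 to 12 days. AKR1C2 was counted at 2358, 2240 and 2346 CPM in the 3 control libraries of 3 days, at 921, 930 and 971 after 3 days of SP, and at 524, 521 and 571 after 12 days. The 3 groups did not overlap, and every SP library lay below every control. AKR1C2 was thus 2.46-fold lower at 3 days (log2 fold change -1.30 ± 0.08 SE, adjusted p = 4.74e-09) and 4.30-fold lower at 12 days (-2.10 ± 0.08, adjusted p = 4.40e-11). The direct comparison of 12 with 3 days of SP gave a log2 difference of -0.80 ± 0.08 (adjusted p = 3.43e-05).

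AKR1C1 moved like AKR1C2 at a lower level. It stood at 448, 419 and 433 CPM in the controls of 3 days, at 165, 176 and 178 after 3 days of SP and at 96.0, 84.8 and 122 after 12 days, again without overlap. The fold changes were 2.51-fold lower at 3 days (-1.33 ± 0.11, adjusted p = 8.55e-08) and 4.29-fold lower at 12 days (-2.10 ± 0.11, adjusted p = 6.97e-10), and 12 days differed from 3 days by -0.77 ± 0.11 on the log2 scale (adjusted p = 4.79e-04). In an alternative, the reads of AKR1C1 and AKR1C2, and those of AKR1B10 and AKR1B15, were added together before the test. Both merged pairs still fell at 3 and 12 days, but the AKR1C1 call at 24 h, given below, was lost. The result of a pair was counted for both of its members, so the count of members that passed is no check on shared reads.

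AKR1C3 fell less. It stood at 1120, 1033 and 1150 CPM in the controls of 3 days, at 479, 500 and 492 after 3 days and at 359, 346 and 343 after 12 days of SP. No library of one group reached the next. AKR1C3 was 2.25-fold lower at 3 days (-1.17 ± 0.08, adjusted p = 9.55e-09), 3.15-fold lower at 12 days (-1.66 ± 0.08, adjusted p = 2.70e-10), and lower at 12 than at 3 days by 0.49 on the log2 scale (-0.49 ± 0.08, adjusted p = 0.00131). These 3 members were the only ones of the 9 to pass between 12 and 3 days, where 8.10% of all tested genes did. Because the 3 genes fell to unequal extents, the make-up of their reads shifted. AKR1C3 took 28.6% ± 0.642 of the AKR1C1, AKR1C2 and AKR1C3 reads in the control of 3 days, 30.6% ± 0.594 at SP 3 days and 35.4% ± 1.97 at SP 12 days, while the AKR1C1 share of these reads went from 11.3% ± 0.212 to 10.2% ± 1.48. In the other table the AKR1C3 share went the other way, from 37.9% ± 0.807 in the control of 24 h to 36.3% ± 0.763 at SP 3 h and 33.5% ± 1.17 at SP 24 h. The shares were not tested.

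The same genes had smaller fold changes at 24 h than at 3 days. AKR1C3 stood at 1013, 1029 and 726 CPM in the controls of 24 h and at 598, 597 and 569 after 24 h of SP, without overlap, and was 1.57-fold lower (-0.65 ± 0.14, adjusted p = 0.00719). AKR1C1 was counted at 233, 255.5 and 155 CPM in those controls and at 150, 163 and 130 after SP, so that the lowest control lay within the SP libraries. Its change of -0.54 ± 0.18 had an adjusted p of 0.0485, and the call was lost without any 1 of 8 of the 9 libraries of that table, the exception being replicate 3 of the control, with log2 values between -0.61 and -0.40 and adjusted p between 0.0543 and 0.161. The AKR1C1 call was also lost at a minimum count of 50 (-0.51, adjusted p = 0.0653) and with only the groups compared (-0.55, adjusted p = 0.0744). With the reads of AKR1C1 and AKR1C2 added together the pair did not pass at 24 h (-0.37, adjusted p = 0.0894). AKR1C2, at 1377, 1496 and 1030 CPM against 1040, 1089 and 943, did not pass (-0.35 ± 0.14, adjusted p = 0.102). It passed when only the control and SP libraries of 24 h were fitted with the replicate number as a block (-0.34, adjusted p = 0.0334), and when replicate 3 of the control, the lowest of its group for all of AKR1C1, AKR1C2 and AKR1C3, was left out (-0.49, adjusted p = 0.0123).

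At 3 h the values were close to the control. AKR1C3 stood at 640, 730 and 719 CPM, with the highest of these just above the lowest control, and its log2 fold change of -0.41 ± 0.14 had an adjusted p of 0.0895. AKR1C1 and AKR1C2 were at -0.34 ± 0.18 (adjusted p = 0.275) and -0.30 ± 0.14 (adjusted p = 0.226). Among the 9 tested members 2 had an unadjusted p under 0.05 in edgeR's test, as did 4367 of all 17377 genes. DESeq2 called 1 member at an adjusted p under 0.05, and of those 17377 genes it called 1538 higher and 1127 lower. Neither share of members stood above that of all genes. Without replicate 3 of the control of 24 h, 4 members passed, AKR1B10 at -0.47, AKR1C1 at -0.53, AKR1C2 at -0.45 and AKR1C3 at -0.55. The share of all genes that passed in that fit is not given here, so this count cannot be set beside it.

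AKR1C1 and AKR1C2 responded more to SP at 3 days than at 24 h. In a model of all 18 libraries, the difference between the SP effect at 3 days and that at 24 h, each against its own control, was -0.92 ± 0.16 for AKR1C2 (adjusted p = 0.00238) and -0.75 ± 0.21 for AKR1C1 (adjusted p = 0.0437). AKR1C3 had -0.48 ± 0.15 and did not pass (adjusted p = 0.0653). It passed with only the groups compared and the replicate number as a block (-0.49, adjusted p = 0.0288), with DESeq2 (adjusted p = 0.0345), with no filter on low counts (adjusted p = 0.0458), at a minimum count of 50 (adjusted p = 0.0440) and without replicate 2 of the control of 24 h (adjusted p = 0.0472). AKR1C1 and AKR1C2 were the 2 members that passed in the model as first given, where 6.28% of all genes did. The AKR1C1 call was lost without any 1 of 10 libraries, all 6 of the 3-day groups, replicate 1 of SP 12 days, replicate 1 of SP 3 h and replicates 1 and 2 of SP 24 h, with adjusted p up to 0.108. The controls of the 2 tables differed as well: AKR1C1 was at 214 ± 52.9 CPM in the control of 24 h and at 434 ± 14.5 in that of 3 days, and AKR1C2 at 1301 ± 242 and 2315 ± 65.3. After SP the levels lay closer, at 147 ± 16.7 and 173 ± 7.16 CPM for AKR1C1 and at 1024 ± 74.2 and 941 ± 26.7 for AKR1C2. The tables were scaled separately and the difference between the controls was not tested.

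AKR1C4 was near the limit of counting. It had 0.794, 1.06 and 0.491 CPM in the controls of 24 h, 0.635, 0.681 and 0.652 after 3 h and 1.46, 1.03 and 1.52 after 24 h of SP. It did not pass against the control at 24 h (0.79 ± 0.30, adjusted p = 0.0763), but did without replicate 2 of that control (1.06, adjusted p = 0.0435). AKR1C4 was higher at 24 h than at 3 h of SP (1.00 ± 0.31, adjusted p = 0.0465). That call was lost without replicate 1 of the control or any 1 of the 6 SP libraries, with adjusted p up to 0.143. It was also lost with the replicate number as a block (0.99, adjusted p = 0.0786) and with no filter on low counts (adjusted p = 0.0595). The block with GC content and length correction (adjusted p = 0.0505), or with only the groups compared (adjusted p = 0.0564), lost it as well. It did not pass at 3 or 12 days (0.05 ± 0.25 and -0.53 ± 0.26, adjusted p = 0.884 and 0.101). These values rest on between 64 and 85 reads per group, and a fall like that of its neighbours was not seen at 3 days. The part of its neighbours' reads placed on AKR1C4 was not tested.

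AKR1B10, the most abundant member, fell early and then held its level. It was counted at 2952, 2837 and 2099 CPM in the controls of 24 h, at 1963, 2233 and 2087 after 3 h and at 1456, 1311 and 1186 after 24 h of SP. The 24 h libraries lay below all others, and those of 3 h overlapped the control. AKR1B10 was 1.996-fold lower at 24 h (-0.997 ± 0.14, adjusted p = 0.00104), did not pass at 3 h (-0.33 ± 0.14, adjusted p = 0.182), and was lower at 24 h than at 3 h of SP by 0.67 on the log2 scale (-0.67 ± 0.14, adjusted p = 0.0111), a call lost without replicate 3 of SP 24 h (-0.60, adjusted p = 0.0529). At 3 days it went from 2778, 2624 and 3000 CPM in the controls to 1290, 1367 and 1398, 2.07-fold lower (-1.05 ± 0.09, adjusted p = 1.24e-07). At 12 days it stood at 1372, 1407 and 1255 CPM, 2.08-fold lower (-1.06 ± 0.09, adjusted p = 9.76e-08). Between 12 and 3 days the difference was -0.01 ± 0.09 (adjusted p = 0.971), and between the effects of 3 days and 24 h it was -0.02 ± 0.16 (adjusted p = 0.965).

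AKR1B15, the close copy, was counted at 25.2, 20.5 and 25.8 CPM in the controls of 3 days and at 11.9, 11.5 and 13.3 after 3 days of SP, without overlap. It fell by 0.79 on the log2 scale at 24 h (adjusted p = 0.00416), by 0.96 at 3 days (adjusted p = 5.23e-06) and by 0.96 at 12 days (adjusted p = 4.40e-06). Between 24 h and 3 h of SP it did not pass (-0.46 ± 0.15, adjusted p = 0.0558). It passed in 7 of the alternatives, but these include the fit with its reads added to those of AKR1B10 (-0.67), which is not a result of AKR1B15 alone. In the others the log2 values lay between -0.56 and -0.45 and the adjusted p between 0.0109 and 0.0492. Among them were the replicate number as a block (adjusted p = 0.0492), DESeq2 (adjusted p = 0.0340) and leaving out replicate 3 of the control of 24 h (adjusted p = 0.0287). AKR1B15 had between 0.574 and 1.03 reads for every 100 reads of AKR1B10 in all 18 libraries. The part of AKR1B10 reads placed on AKR1B15 in this fall was not tested.

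AKR1B1, aldose reductase, was the only member that rose against a control in the edgeR test on all libraries of a table. It stood at 1397, 1289 and 1544 CPM in the controls of 3 days, at 2084, 2159 and 2430 after 3 days of SP and at 2078, 1941 and 1872 after 12 days. Every SP library lay above every control, and the lowest library of SP 3 days lay just above the highest of SP 12 days, a difference that did not pass (-0.18 ± 0.10, adjusted p = 0.273). The rise was 1.58-fold at 3 days (0.66 ± 0.10, adjusted p = 3.76e-05) and 1.39-fold at 12 days (0.48 ± 0.10, adjusted p = 6.54e-04). At 24 h it went from 1607, 1363 and 1479 CPM to 2091, 1643 and 2106, 1.31-fold higher (0.39 ± 0.12, adjusted p = 0.0350). That call was lost with a correction for GC content and gene length (0.12, adjusted p = 0.565) and with only the groups compared (0.38, adjusted p = 0.0684). It was also lost without replicate 2 or 3 of the control, replicate 1 of SP 3 h or replicate 1 or 3 of SP 24 h (adjusted p between 0.0529 and 0.128). At 3 h there was no change to be seen at this spread (-0.03 ± 0.12, adjusted p = 0.932), and 24 h was higher than 3 h of SP by 0.42 ± 0.12 on the log2 scale (adjusted p = 0.0362). It was 1 of 3 members to pass between 24 h and 3 h of SP, with AKR1B10 and AKR1C4, where 20.1% of all tested genes did. The AKR1B1 call was lost without any 1 library of SP 3 h and without replicate 1 or 3 of SP 24 h (adjusted p between 0.0725 and 0.133), and with the correction for GC content and length (0.23, adjusted p = 0.269).

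With AKR1B10 lower and AKR1B1 higher, the order of their reads turned over. There were 1.99 ± 0.0456 AKR1B10 reads for each AKR1B1 read in the control of 3 days and 1.78 ± 0.335 in that of 24 h. The ratio was 1.44 ± 0.137 after 3 h of SP, 0.686 ± 0.118 after 24 h, 0.609 ± 0.0301 after 3 days and 0.685 ± 0.0346 after 12 days, so that AKR1B1 had the more reads in all 9 SP libraries of 24 h or later and in no other. The read ratio is not a ratio of molecules, since the AKR1B1 exons span 3654 bases and those of AKR1B10 span 1773. AKR1B1 made up 17.2% ± 0.629 of all reads of the 10 members in the control of 3 days and 44.3% ± 1.11 after 12 days. The 10 members together took 0.830% ± 0.0255 of the reads in genes in the control of 3 days, 0.528% ± 0.0204 after 3 days and 0.438% ± 0.00882 after 12 days of SP, and 0.660% ± 0.0912 in the control of 24 h, 0.559% ± 0.0303 after 3 h and 0.517% ± 0.0212 after 24 h.

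**Figure D2:**
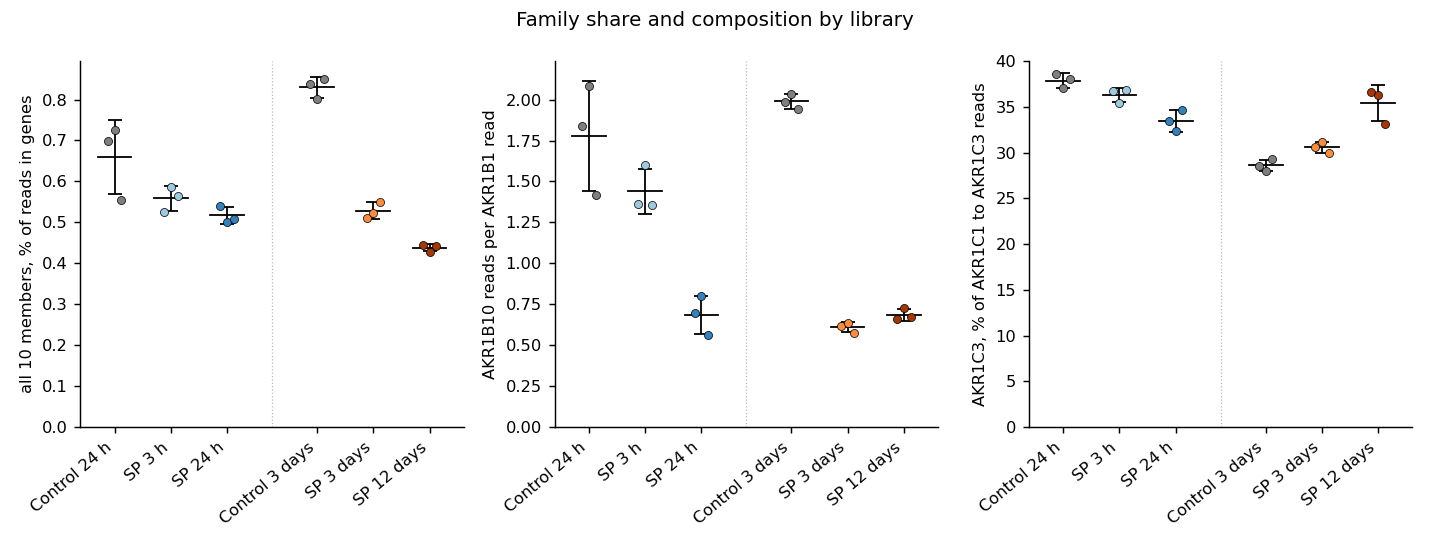
Share of reads in genes taken by the 10 members, AKR1B10 reads per AKR1B1 read, and the AKR1C3 share of AKR1C1, AKR1C2 and AKR1C3 reads (y axes, from 0), by group (x axis), with a point per library and the mean ± SD. The members' share falls from 0.830% to 0.438% between the control of 3 days and SP 12 days, and the AKR1B10 to AKR1B1 ratio lies between 0.563 and 0.798 in the SP libraries of 24 h or later, against 1.36 or more in the others.

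The members outside the AKR1B and AKR1C groups moved less. AKR7A2, which reduces aflatoxin dialdehyde and succinic semialdehyde, was counted at 41.8, 39.3 and 49.2 CPM in the controls of 3 days, at 33.0, 36.5 and 37.5 after 3 days of SP and at 30.98, 34.7 and 33.2 after 12 days. Both SP groups lay below the controls. It fell by 0.29 on the log2 scale at 3 days (adjusted p = 0.0256) and by 0.40 at 12 days (adjusted p = 0.00335), and the call of 3 days was lost without replicate 3 of the control (adjusted p = 0.129) or replicate 1 of SP 3 days (adjusted p = 0.101). At 24 h it did not pass (-0.30 ± 0.11, adjusted p = 0.0685), and with the correction for GC content and length it was at -0.85 (adjusted p = 0.00158), while that correction moved the median of all genes to -0.14. AKR7A2 at 24 h also passed with DESeq2 (-0.31, adjusted p = 0.0419) and without replicate 3 of the control (-0.38, adjusted p = 0.0319). AKR1A1, the general aldehyde reductase, stayed between 57.7 and 94.2 CPM in all libraries and passed in no comparison, with log2 fold changes of -0.06 at 3 h, -0.13 at 24 h, 0.10 at 3 days and 0.02 at 12 days. With the correction for GC content and length it passed at 24 h (-0.52, adjusted p = 0.00714). AKR7A3 had 12 reads in the controls of 24 h, 19 after 3 h and 30 after 24 h of SP, and 22, 28 and 18 in the groups of the other table.

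The RefSeq start of AKR1C1 and AKR1C2 is also a copy. Of the 10 members, 8 had at least 1 RefSeq promoter entry on GRCh38, and none was found for AKR1B10 or AKR1B15. A RefSeq start can lie within the GENCODE span given above. The AKR1C2 window, chr10:5003858-5004107, lies within its span, as do those of AKR1C3, AKR1C4 and AKR1A1. The AKR1C1 window, chr10:4963165-4963414, and the AKR1B1 windows overlap their spans in part. In the 250 bases before the RefSeq start, AKR1C1 and AKR1C2 were the same at 245 of 246 bases that could be lined up without gaps, or 99.6%. Both genes had a log2 fold change of -2.10 at 12 days. No other pair of AKR1C windows passed 58.1% without gaps. The part of the matched stretch that no annotated exon of either gene covers is shown for both genes, 5′ to 3′ on the strand of the gene. No base of it differs.
AKR1C1, chr10:4963169-4963252, + strand: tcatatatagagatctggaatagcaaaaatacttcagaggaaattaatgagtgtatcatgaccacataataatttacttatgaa
AKR1C2, chr10:5004024-5004107, - strand: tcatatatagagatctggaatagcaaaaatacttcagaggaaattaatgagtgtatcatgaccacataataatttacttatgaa
The core of the antioxidant response element bound by NRF2, searched as TGACNNNGC on both strands, was not found in the 250 bases before any AKR1B or AKR1C entry. It occurred in 10.9% of the 35114 promoter windows of that length, and among the members only in AKR7A2, at 3 places in each of its 2 overlapping windows. The AP-1 letters TGANTCA, which can overlap that core, occurred in 6.57% of all windows and in none of the members. These are descriptions of letters in short windows.

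Genes near the clusters were read to see whether the neighbourhood moved. Within 200 kb of the AKR1C genes, 3 of 7 tested neighbours fell at 3 days and none rose, where 23.3% of all tested genes fell and 25.2% rose. They were AKR1E2, an aldo-keto reductase of the same region (-0.66 ± 0.11, adjusted p = 1.27e-04), NET1, a guanine nucleotide exchange factor for RhoA (-0.89 ± 0.07, adjusted p = 6.40e-08), and the lncRNA ENSG00000224251, which lies within the span of AKR1C2 (-1.40 ± 0.24, adjusted p = 2.03e-04). The strand setting of the counting is not given in the sources used here, so reads of that lncRNA and of unspliced AKR1C2 RNA could not be told apart. At 12 days the same 3 genes passed as lower and 2 U8 snoRNA genes as higher, and at 24 h NET1 was lower (-0.51 ± 0.10, adjusted p = 0.00637) and the pseudogene AKR1C7P higher (0.66 ± 0.19, adjusted p = 0.0293), of 5 tested. Around the AKR1B genes, 2 of 5 tested neighbours rose at 3 days, where 25.2% of all genes did, LRGUK (0.98 ± 0.39, adjusted p = 0.0466) and LINC03060 (0.40 ± 0.15, adjusted p = 0.0398), and none fell. Neither passed at 12 days, when CALD1 (0.32 ± 0.11, adjusted p = 0.0214) and BPGM (0.42 ± 0.10, adjusted p = 0.00281) were higher, and at 24 h SLC35B4 alone passed, as lower (-0.33 ± 0.09, adjusted p = 0.0265).

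Of the other aldo-keto reductases, AKR1D1 and AKR1C8 were too low to test and 5 were tested. AKR1E2 fell at 3 days, as given above, and at 12 days (-0.57 ± 0.11, adjusted p = 3.97e-04). KCNAB3, a potassium channel subunit with the aldo-keto reductase fold, rose from 2.90 ± 0.478 to 6.70 ± 1.24 CPM at 3 days (1.21 ± 0.18, adjusted p = 4.38e-05). KCNAB1 passed only at 3 h (1.20 ± 0.34, adjusted p = 0.0483), and KCNAB2 and AKR7L passed nowhere.

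Targets of NRF2, the factor known to drive AKR1B10 and the AKR1C genes, were read beside the members. Of 26 such genes outside the family, all tested, 16 fell and none rose at 3 days, with a median log2 fold change of -0.38, and at 12 days 17 fell and 1 rose, with a median of -0.34. At 24 h 10 fell and 2 rose, and at 3 h 3 fell and none rose. The background for lower genes was 23.3%, 23.4%, 12.0% and 4.11%, as for the members above. For higher genes it was 25.2%, 26.4%, 16.8% and 7.39%. The largest falls at 3 days were in ALDH3A1, an aldehyde dehydrogenase, from 1933 ± 238 to 322 ± 17.6 CPM (-2.58 ± 0.12, adjusted p = 2.39e-10), and OSGIN1, a growth inhibitor induced by oxidative stress, from 41.5 ± 3.80 to 12.2 ± 0.562 CPM (-1.77 ± 0.12, adjusted p = 7.79e-09). NQO1, a textbook target named after its values were seen, did not pass at 3 days (-0.17 ± 0.08, adjusted p = 0.0949).

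Among the 10 regulators of NRF2, 5 fell and 1 rose at 3 days, where 23.3% and 25.2% of all tested genes did. KEAP1, which marks NRF2 for degradation, went from 104 ± 8.25 to 35.9 ± 1.06 CPM (-1.53 ± 0.10, adjusted p = 6.20e-09), and MAFG, a DNA-binding partner of NRF2, from 223 ± 9.49 to 139 ± 3.99 CPM (-0.68 ± 0.07, adjusted p = 1.48e-06). KEAP1 was also lower at 3 h, when no member passed, from 129 ± 3.88 to 48.6 ± 7.81 CPM (-1.41 ± 0.12, adjusted p = 4.84e-04). NFE2L2, which encodes NRF2 and is named after its values were seen, stood at -0.24 ± 0.09 at 3 days (adjusted p = 0.0288) and at -0.20 ± 0.08 at 12 days (adjusted p = 0.0661).

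**Figure D3:**
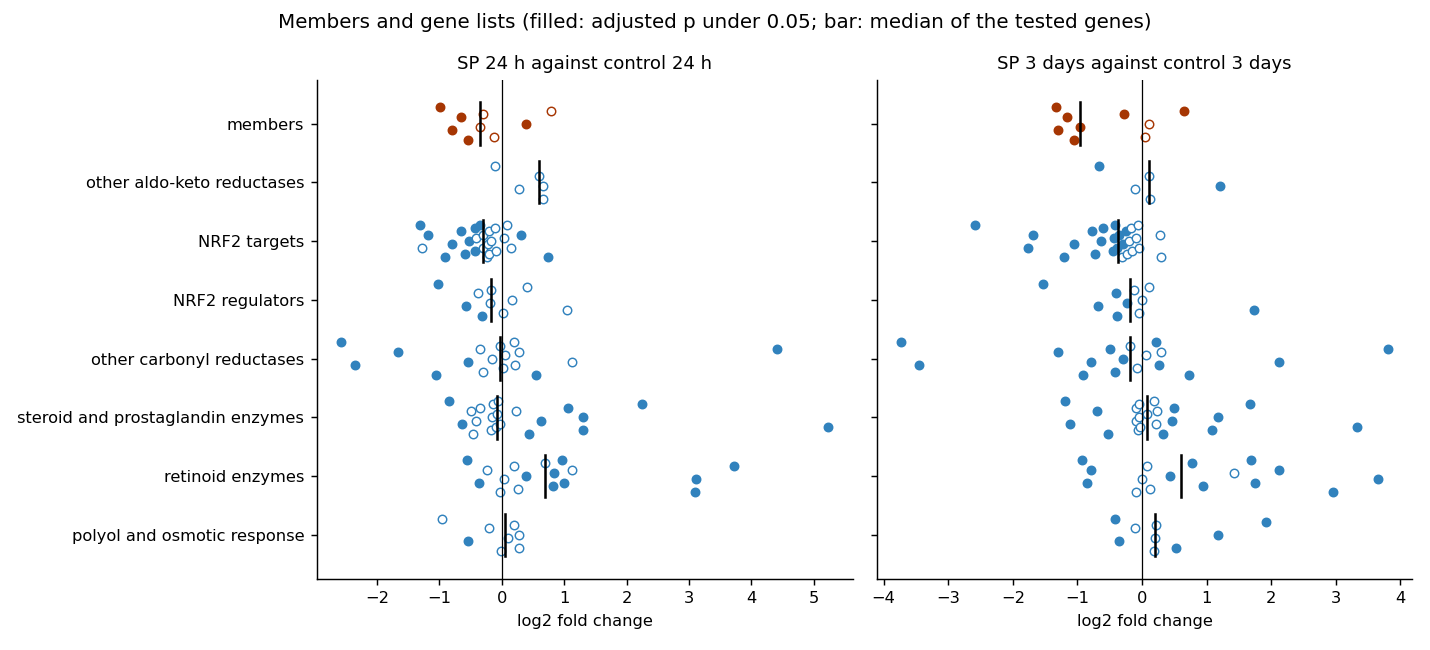
Log2 fold change (x axis) of the tested members and of the tested genes of 7 lists (rows) at 24 h and at 3 days of SP, with a point per gene, filled where the adjusted p was under 0.05, and a bar at the median. Vertical position within a row carries no value. At 3 days the median of the members lies at -0.96 and that of the NRF2 targets at -0.38, and the retinoid list lies at 0.61.

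Enzymes with related substrates were read beside shares of 25.2% higher and 23.3% lower among all genes tested at 3 days. Of 17 tested carbonyl reductases and alcohol dehydrogenases outside the family, 5 rose, a share near that of all genes, and 8 fell at 3 days. DHRS2 rose from 1.67 ± 0.103 to 23.6 ± 1.09 CPM (3.81 ± 0.14, adjusted p = 1.57e-11), DCXR, which reduces dicarbonyls and xylulose, rose by 0.73 ± 0.09 (adjusted p = 1.07e-05), and the alcohol dehydrogenases ADH6 and ADH1C fell by 3.73 and 3.45 on the log2 scale (adjusted p = 7.45e-08 and 7.04e-08). Of 21 steroid and prostaglandin enzymes, 7 rose and 4 fell at 3 days, both near the shares of all genes, among them HSD17B8 and STS (0.49 ± 0.11 and 0.47 ± 0.12) and, downward, HSD3B7 and HSD17B11 (-1.11 ± 0.18 and -0.70 ± 0.12).

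AKR1B10 reduces retinal, and at 3 days retinoid genes had the highest median of the 7 lists, at 0.61. Of 16 tested at that time, 8 rose, where 25.2% of all genes did, and 3 fell, where 23.3% did. CRABP2, which carries retinoic acid to the nucleus, rose from 1.51 ± 0.140 to 19.1 ± 1.43 CPM (3.66 ± 0.14, adjusted p = 3.14e-11) and ALDH1A3, which makes retinoic acid, rose by 0.94 ± 0.29 (adjusted p = 0.0241). ALDH1A1, an abundant enzyme of the same step, fell from 8756 ± 428 to 4846 ± 144 CPM (-0.85 ± 0.10, adjusted p = 2.63e-06), and RDH10, which makes retinal, from 149 ± 3.01 to 78.6 ± 6.15 CPM (-0.92 ± 0.11, adjusted p = 5.45e-06). Of 9 genes of the polyol pathway and the osmotic response, which AKR1B1 belongs to, 3 rose and 2 fell at 3 days. Both lie near the shares of all genes. SORD, the enzyme that takes sorbitol on to fructose, fell by 0.42 on the log2 scale (-0.42 ± 0.11, adjusted p = 0.00543), and NFAT5, the factor of the osmotic response, by 0.36 (-0.36 ± 0.09, adjusted p = 0.00480). KHK and the heat shock gene HSPA1B rose, by 0.53 ± 0.10 and 1.18 ± 0.13.

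The genes most like AKR1B10 and AKR1C1 were sought among 10525 genes by Pearson's r over the 18 libraries, on log2 CPM centred on each table's control. The libraries share treatment groups and scaling, so r is a description. For AKR1B10 they were DHRSX (r = 0.975), HMGN2 (0.973), GALC (0.965), CC2D2A (0.964) and APOL6 (0.957), of which HMGN2 had a log2 fold change of -1.22 at 24 h and -1.39 at 3 days. For AKR1C1 they were ANXA13 (r = 0.988), TM4SF20 (0.974), HLA-DMB (0.972), HILPDA (0.967) and GLP2R (0.961), of which ANXA13 had -2.06 at 3 days and -2.72 at 12 days. Among the members, r was 0.991 between AKR1C1 and AKR1C2, 0.979 between AKR1C1 and AKR1C3, 0.972 between AKR1B10 and AKR1B15, 0.812 between AKR1B10 and AKR1C1, and -0.828 between AKR1B1 and AKR1B10.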

How the data were processed

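RNA of 18 A549 libraries was sequenced as paired ends. Per the study's methods and the submitters' processing notes, the authors ran FastQC, aligned reads to GRCh38 with STAR 2.7.9a and deposited 2 tables of raw counts per gene made with featureCounts in R 4.2.1, and used DESeq2 1.36.0. The strand setting, the handling of multi-mapped reads and the read length are not given in the sources used here. The authors' deposited counts were tested as given with edgeR 4.0.16 (R 4.3.3). Genes passed filterByExpr at a minimum count of 10, leaving 17377 and 17775 genes, libraries were scaled by TMM (factors 0.957 to 1.04), and 1 robust quasi-likelihood model was fitted per table, with a joint model (18785 genes) for the difference between the effects of 3 days and 24 h. The p-values were adjusted over all genes tested.

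The members and gene lists were chosen with earlier results of these data known. Named from each list were up to 2 genes with the largest rise and 2 with the largest fall at 3 days among those that passed and averaged 100 reads or more in the control or the SP group. All tested aldo-keto reductases, the 5 genes most like AKR1B10 and AKR1C1 (from genes averaging 100 reads or more in all 6 groups), and tested neighbours within 200 kb were also eligible. Alternatives were DESeq2 1.42.0, its size factors, other count filters, GC content and length correction, merged paralogs, only the groups compared, a replicate block and leaving out each library. Same-numbered control and SP libraries of 24 h had a residual r of 0.50, 0.17 and 0.50, and other groups did not show this. Libraries of unlike number reached similar values. Replicate 1 of the control of 24 h and replicate 3 of SP 3 h had 0.58, and replicate 3 of that control and replicate 2 of SP 24 h had 0.175. Whether the numbers pair the libraries cannot be told from these values. Depth of 14187401 to 43765330 reads limits members near 0. Gene models and sequences are from GENCODE and RefSeq on GRCh38. No proteins are shown.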

Additional observations from a re-analysis of the deposited data

Results flagged for a closer look

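Members whose level under SP, or whose SP effect, differed between times, by a test of the difference itself, were singled out for a closer look. Between 24 h and 3 h of SP the log2 difference was 0.42 for AKR1B1, -0.67 for AKR1B10 and 1.00 for AKR1C4, and the AKR1C4 value rests on 46 and 127 reads per group. Each of these calls was lost on leaving out some single library, as given above. No untreated library of 3 h was analysed, so SP and time in culture cannot be told apart in them. Between 12 and 3 days of SP it was -0.77 for AKR1C1, -0.80 for AKR1C2 and -0.49 for AKR1C3, and no untreated library of 12 days was analysed, so SP and time in culture cannot be told apart there. Between the SP effects of 3 days and 24 h it was -0.75 for AKR1C1 and -0.92 for AKR1C2, whose controls differed between the tables. That AKR1C1 call was also lost on leaving out some single libraries, as given above.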

How the results depend on the processing

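No member changed sign past the threshold under any alternative run. At 3 and 12 days the counts of members that passed kept within 6 to 7 and at 7 over all alternatives, and those called at the thresholds of the paper within 3 to 5 in both. In the fit with merged paralogs, the result of a pair was counted for both of its members. At 3 h, where none passed, DESeq2 gave 1, no filter on low counts gave 1, and the replicate block with GC content and length correction gave 2, and leaving out single libraries gave 0 to 4, with 4 only without replicate 3 of the control of 24 h. Of all genes at 3 h, DESeq2 gave 1538 higher and 1127 lower of 17377, and no filter gave 1339 and 669 of 36979. The block with the correction gave 1659 and 1949 of 17377. Shares of all genes on leaving out single libraries are not given here. At 24 h, 5 passed, against 3 with only the groups compared and 3 to 6 on leaving out single libraries, with 3 without replicate 1 of SP 3 h or replicate 1 or 3 of SP 24 h. None was called at 24 h, against 1 with DESeq2. Between 24 h and 3 h, 3 passed, and 0 to 4 on leaving out single libraries. For the difference of effects, 2 passed, and 1 to 3 on leaving out single libraries. Those ranges for 3 days were 6 to 7 passed and 3 to 5 called, and for 12 days 7 passed and 4 to 5 called.

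The replicate block on all libraries of a table left 5 members past the threshold at 24 h, and changed the call of a member only for AKR1B15 and AKR1C4 between 24 h and 3 h, as given above. With only the libraries of 24 h and the block, chosen after seeing the data, 6 passed, AKR1C2 among them, and AKR1C3 passed for the difference of effects. More of all genes passed there too. At 24 h 3441 rose and 3108 fell of 17084, against 2922 and 2087 of 17377 in the model as first given. For the difference of effects 1339 were higher and 1230 lower of 18138, against 588 and 592 of 18785. GC content and length correction moved the median of all genes to -0.07 at 3 h, -0.14 at 24 h, -0.13 at 3 days and -0.11 at 12 days, and the share of higher genes among those that passed from 64.3% to 48.0%, 58.3% to 35.7%, 52.0% to 37.9% and 53.0% to 40.3% in the same order. Over all genes, 119 were called at 24 h, against 1192 with DESeq2, 1131 with no filter, 457 with GC content and length correction, 4 with only the groups compared and 2 with the block, and at 3 h 0 against 415 and 408 with DESeq2 and no filter. The cause was not tested.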
